A study of Mus musculus with 2 samples.

Results

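Nucleic acid sensing genes were examined in endothelial cells (ECs) of mouse lungs 6 h after injection of melanoma cells. The 8 members were Tmem173, Apobec3, Ddx58, Ifih1, Tbk1, Irf3, Irf7 and Zbp1, matched by gene symbol among 32285 genes, and all 8 were found in both count matrices. They had been picked with their control and B16-F10 levels in these same libraries known, so the differences between the libraries are given as descriptions and carry no test. The question was how far each gene differed between the lungs, in which vessel type, and in which capillary cells.

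One library came from control mice and one from mice given 400000 B16-F10 cells in 100 µl of saline through the tail vein. B16-F10 is a mouse melanoma line grown in culture, and the injected cells carried a green dye. All mice were wild-type C57BL/6, male and young adult per the study's methods, and control mice received saline alone for the same 6 h. The labels give 2 mice per treatment and the study's methods give 3, pooled before the library was made, so each group is 1 library without a replicate. Cells were sorted as Pecam1-positive (an endothelial surface protein) and Ptprc-negative (a leukocyte protein), and the B16-F10 library also received sorted dye-bearing melanoma cells.

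The control library held 85794655 unique molecular identifiers (UMIs, each 1 captured RNA molecule) and the B16-F10 library 104978816. After filtering, 7830 and 7767 cells remained, and 18 cell barcodes occurred in both. There were 5003 control and 4635 B16-F10 cells of the general capillary class (gCap-like), 1446 and 969 aerocytes (aCap-like), 216 and 161 arterial cells (artery-like), 292 and 278 venous cells (vein-like) and 58 and 51 cells of lymphatic vessels (LEC-like). Each vessel marker list summed highest in the class named for it, and "-like" marks that the names come from rebuilt clusters. Levels are CPM, the UMIs of a gene per 1000000 summed UMIs of a class. Intervals are 95% and cover counting error only, so a ratio past its interval compares 2 libraries and not 2 treatments. Fewer cells of a kind within a class and less RNA per cell cannot be told apart in such sums.

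Cells detect foreign or misplaced DNA and RNA through receptors that converge on a common signalling core. Cytosolic DNA is sensed by cGAS, which signals through the adaptor STING, the product of Tmem173. Double-stranded RNA is sensed by RIG-I (Ddx58) and MDA5 (Ifih1) through the adaptor MAVS. Both arms engage the kinase TBK1, which activates the transcription factor IRF3, while IRF7 amplifies the interferon response. ZBP1 binds nucleic acids in the Z conformation and can start cell death, and APOBEC3 is a cytidine deaminase that restricts retroviruses.

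Promoter sequence was available for 6 of the 8 members in RefSeq (GRCm38.p6), as 7 windows of 300 bases from 250 bases before to 50 bases after a start of transcription. The windows were searched on both strands for GAAANNGAAA and GAAANGAAA, spacings of the element that interferon-activated factors bind, and for TTCNNNGAA, the element bound by STAT dimers. GAAANNGAAA was present in 3.44% of all 32851 windows, GAAANGAAA in 3.17% and TTCNNNGAA in 8.3%. The 4 matches among the members are shown because they set Apobec3, higher in the B16-F10 library, beside Ifih1 and Ddx58, which differed little, with the match in capitals and the strand of the gene.
Apobec3, chr15:79892258-79892287 (+), GAAANNGAAA in reverse complement: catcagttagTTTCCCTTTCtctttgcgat
Ifih1, chr2:62646206-62646235 (-), GAAANNGAAA: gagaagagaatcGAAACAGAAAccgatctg
Ddx58, chr4:40239804-40239833 (-), GAAANNGAAA in reverse complement: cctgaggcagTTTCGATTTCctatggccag
Ddx58, chr4:40239866-40239895 (-), GAAANGAAA: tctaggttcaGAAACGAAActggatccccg
The Apobec3 match began 140 bases before the start of transcription, and the second Apobec3 window held none of the 3 motifs. In Ddx58 the matches began 60 bases before and 2 bases after the start, and in Ifih1 32 bases after it. The windows of Irf3, Irf7 and Tbk1 held none of these letters. A match is a string of letters in a window and was not tested as a binding site.

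In the gCap-like cells, Tmem173, Apobec3 and Zbp1 were at least 1.5-fold higher in the B16-F10 library and no member was at least 1.5-fold lower. Of the 13330 genes with at least 50 UMIs, 7.83% were at least 1.5-fold higher and 9.5% at least 1.5-fold lower, and since the members were picked on these values no more is read from the count. For 7 of the 8 members the whole interval of the ratio lay above 0, as it did for 28.9% of all genes. The median log2 ratio of the members was 0.29, against -0.04 over all genes.

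**Figure D1:**
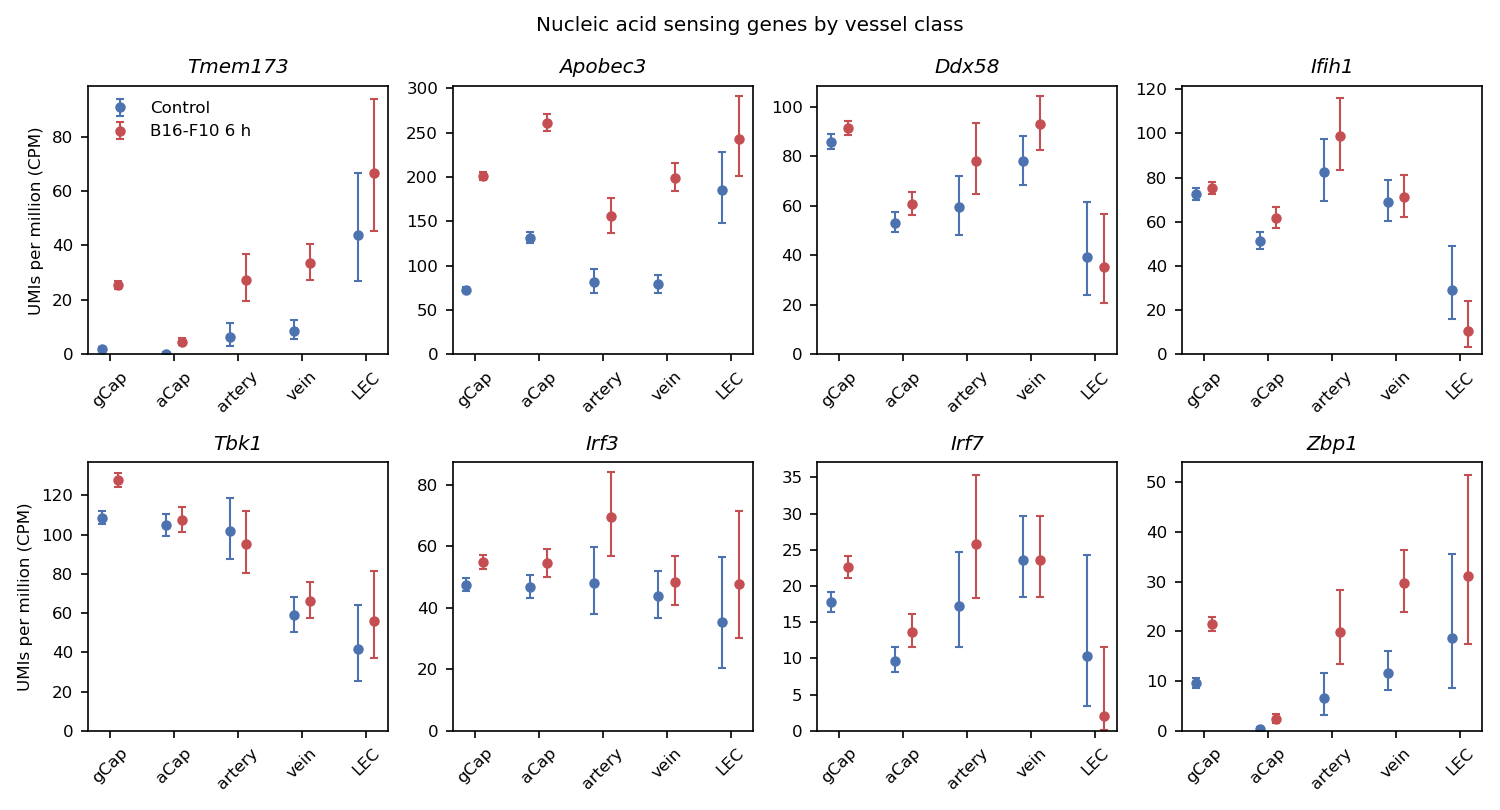
Level of each member in CPM (vertical axis, from 0) in the 5 vessel classes, with Control in blue and B16-F10 6 h in red; bars are exact 95% Poisson intervals, 1 library per group. Tmem173 in gCap-like cells stood at 2.12 and 25.4 CPM, while Ifih1 stood at 72.7 and 75.1.

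Tmem173, the STING adaptor of the DNA arm, was at 2.12 CPM (1.68 to 2.64; 80 UMIs) in control gCap-like cells and at 25.4 CPM (23.8 to 27.0; 1035 UMIs) in the B16-F10 library. The log2 ratio was 3.58 (3.25 to 3.93), or 12.0-fold. Free RNA, estimated from near-empty barcodes, could account for at most 0.112 CPM in control and 0.692 CPM in B16-F10. With each cell reduced to 2000 UMIs, 0.445% (0.279 to 0.673) of 4941 control cells and 4.36% (3.79 to 4.99) of 4606 B16-F10 cells held a Tmem173 UMI, where free RNA alone would give 0.0225% and 0.138%. Unreduced, with a median of 7355 and 8522 UMIs per cell, 1.42% and 14.0% of cells held one. The control level was therefore low but above free RNA.

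Apobec3, the retroviral restriction factor, was at 72.9 CPM (70.2 to 75.7) in control and 201 CPM (196 to 205) in B16-F10, a log2 ratio of 1.46 (1.40 to 1.52). At 2000 UMIs per cell, 12.8% (11.9 to 13.8) of control and 31.8% (30.5 to 33.2) of B16-F10 cells held an Apobec3 UMI, against 0.197% and 0.814% from free RNA. The unreduced shares were 38.1% and 69.5%. Apobec3 overlaps the gene D730005E14Rik on its own strand, so reads from the overlap are uncertain.

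Zbp1, the Z-nucleic acid sensor, was at 9.59 CPM (8.63 to 10.6) in control and 21.5 CPM (20.1 to 23.0) in B16-F10, a log2 ratio of 1.17 (0.99 to 1.35). The share of cells with a Zbp1 UMI at equal depth was 1.62% (1.29 to 2.01) and 4.06% (3.51 to 4.67).

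The RNA receptors differed little between the libraries. Ddx58 was at 85.9 CPM in control and 91.4 CPM in B16-F10, a log2 ratio of 0.09 (0.02 to 0.16), and this ratio was -0.0076 in cells that held no UMI of other cell types' markers. Ifih1 was at 72.7 and 75.1 CPM, a log2 ratio of 0.05 (-0.03 to 0.12). Its interval was the only one among the members to span 0 in gCap-like cells. It covers counting error only and sets no limit on a difference between treatments.

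The shared core stood between these. Tbk1, the kinase, was at 108.5 CPM in control and 128 CPM in B16-F10, a log2 ratio of 0.24 (0.18 to 0.30). Irf3, the factor it activates, was at 47.6 and 54.9 CPM, a log2 ratio of 0.20 (0.11 to 0.29). Irf7, the amplifying factor, was at 17.7 and 22.6 CPM, a log2 ratio of 0.35 (0.20 to 0.49). None of the 3 reached 1.5-fold. Irf3 and Irf7 overlap Bcl2l12 and Phrf1 on the opposite strand.

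Transcripts of other cell types also differed between the gCap-like sums. The 6 macrophage and monocyte markers summed to 14.5 CPM in control and 28.7 CPM in B16-F10, the 8 melanoma markers to 26.9 and 54.4 CPM with Mlana and Tyrp1 at 0 in control, and the 6 neutrophil markers to 2.86 and 7.91 CPM with Mmp8 at 0 in control. The 8 mural markers summed to 30.1 and 50.8 CPM and the 6 fibroblast markers to 8.21 and 12.9 CPM, with Lum at 0 in both. Those of arteries, at 795 and 477 CPM, and of epithelium, at 191 and 150.5 CPM, were lower in B16-F10. Lymphoid markers were at 1.22 and 1.27 CPM, platelet markers at 24.2 and 24.9 CPM and red cell markers at 1203 and 1426 CPM. In the 3951 control and 2450 B16-F10 cells without a UMI of leukocyte, platelet or melanoma markers, the log2 ratio of Tmem173 was 3.60. It was 3.65 in the 1296 and 627 cells without a UMI of platelet, mural, macrophage and monocyte, neutrophil, lymphoid, melanoma, epithelial or fibroblast markers. In the same sets of cells Apobec3 was at 1.48 (1.40 to 1.55) and 1.51 (1.37 to 1.65), and Zbp1 at 1.09 (0.87 to 1.32) and 0.85 (0.40 to 1.29). Red cell, plasmacytoid dendritic and other vessel markers were not part of the stricter filter. That filter is meant wherever cells are said to be without other cell types' markers.

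The vessel classes did not share these levels. In control, Tmem173 was lowest in aCap-like cells (0.305 CPM, 4 UMIs, near the 0.173 CPM that free RNA could give), then 2.12 CPM in gCap-like cells, 6.53 in artery-like, 8.73 in vein-like and 43.7 in LEC-like cells. The artery and vein intervals overlapped (3.26 to 11.7 and 5.75 to 12.7 CPM), and the other neighbours in this order had separate intervals. In the B16-F10 library the order began with aCap-like cells at 4.50 CPM, and gCap-like (25.4), artery-like (27.1) and vein-like cells (33.5) lay close together below LEC-like cells at 66.5 CPM. The intervals of gCap-like and artery-like cells overlapped, as did those of artery-like and vein-like cells.

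For Tmem173 the log2 ratio in aCap-like cells was 3.88 (2.44 to 5.81) on 4 and 49 UMIs. It was 2.06 (1.07 to 3.17) for artery-like cells and 1.94 (1.32 to 2.61) for vein-like cells. In LEC-like cells it was 0.61 (-0.23 to 1.47; 21 and 32 UMIs), an interval that spans 0. The high control level of LEC-like cells rests on 58 cells. The aCap-like class was made of cluster 3, with 818 control and 885 B16-F10 cells, and cluster 8, which had a median of 5301 UMIs and held 628 and 84.

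Apobec3 was higher in the B16-F10 library in the 4 blood vessel classes, with a log2 ratio of 0.99 (0.90 to 1.08) for aCap-like cells. The ratio was 0.93 (0.62 to 1.24) for artery-like cells and 1.33 (1.12 to 1.55) for vein-like cells. Its aCap-like level was 132 CPM in control and 261 CPM in B16-F10, above the gCap-like level in both. In LEC-like cells it was 185 and 243 CPM, a log2 ratio of 0.39 (-0.02 to 0.81).

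Zbp1 in aCap-like cells was at 0.305 CPM in control (4 UMIs, against 0.238 CPM from free RNA) and 2.30 CPM in B16-F10 (25 UMIs), below the 50 UMIs asked for. In vein-like cells it was at 11.6 and 29.7 CPM, a log2 ratio of 1.35 (0.78 to 1.95; 36 and 93 UMIs), but the ratio was 0.07 (-1.86 to 1.80) in vein-like cells that held no UMI of other cell types' markers. In artery-like cells 11 and 30 UMIs were counted, also below the 50 UMIs asked for, a log2 ratio of 1.61 (0.57 to 2.75). The vein-like B16-F10 sum carried the most free RNA of these sums, up to 7.24%, and red cell markers of 3566 CPM against 510 CPM in control; the part of either in the vein ratios was not tested.

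**Figure D2:**
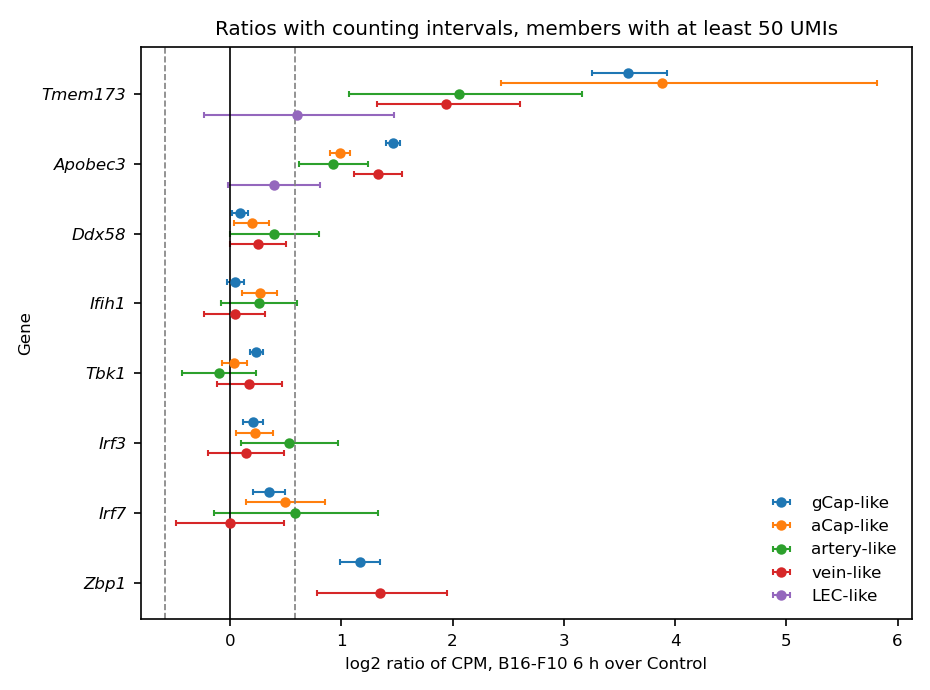
Log2 ratio of CPM, B16-F10 6 h over Control (horizontal axis), for each member with at least 50 UMIs over both sums of a class; bars are exact 95% counting intervals, dashed lines mark 1.5-fold and colours the vessel classes. Tmem173 reached 3.58 in gCap-like cells and 0.61 in LEC-like cells, and the RNA receptors lay between 0.04 (Ifih1, vein-like) and 0.40 (Ddx58, artery-like).

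The RNA receptors and the shared core again differed less. In aCap-like cells the log2 ratio was 0.19 (0.04 to 0.35) for Ddx58, 0.27 (0.11 to 0.42) for Ifih1, 0.22 (0.06 to 0.39) for Irf3, 0.50 (0.15 to 0.85) for Irf7 and 0.04 (-0.08 to 0.15) for Tbk1. In artery-like cells it was 0.53 (0.10 to 0.97) for Irf3 and 0.40 (0.00048 to 0.80) for Ddx58, and both were below 0 in the few cells free of other markers. In the full artery-like class Ifih1 was at 0.26 (-0.08 to 0.60) and Tbk1 at -0.10 (-0.43 to 0.23). In vein-like cells the ratio of Ddx58 was 0.25 (0.0027 to 0.51), and those of Ifih1, Tbk1, Irf3 and Irf7 had intervals that span 0. Irf7 in artery-like cells was at a log2 ratio of 0.59 (-0.14 to 1.33) on 29 and 39 UMIs, which just passes 1.5-fold, and its interval spans 0. Of the members measured, 2 of 7 were at least 1.5-fold higher in aCap-like cells, 3 of 7 in artery-like, 3 of 8 in vein-like and 1 of 2 in LEC-like cells, where 6.42%, 7.83%, 5.29% and 8.4% of all genes were. In the cells free of other markers 1 member was counted, in artery-like as in vein-like cells. The number measured there and the share of all genes are not given, so a loss of differences is not read from it. Over all alternatives Tmem173 stayed at or above a log2 ratio of 1.22 in artery-like and 1.88 in vein-like cells. Apobec3 stayed at or above 0.91 and 0.97, while Irf7 fell to 0.38 in artery-like and Zbp1 to 0.07 in vein-like cells.

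Levels within one gene also set the classes apart in the saline control. Control Ddx58 was at 85.9 CPM in gCap-like and 53.2 CPM in aCap-like cells, and control Irf7 at 17.7 and 9.69 CPM. Tbk1 was at 104.8 CPM in aCap-like, 102 CPM in artery-like and 58.8 CPM in vein-like cells of the control library. Ifih1 was lowest in LEC-like cells, with 14 UMIs in control and 5 in B16-F10.

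The gCap-like class was made of 6 clusters whose sizes differed between libraries. Cluster 0, led by Sox11 and Hey1, held 1570 control and 590 B16-F10 cells, and cluster 6, led by Lalba, Tmem252 and Adamts9, held 104 and 1078. Cluster 5 had few UMIs, with a median of 4460. The members and the response lists described next had been left out of the genes used for clustering.

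In the B16-F10 library Tmem173 was at 79.9 CPM (74.6 to 85.6) in cluster 6, where 819 of its 1035 gCap-like UMIs lay, and between 5.30 and 9.07 CPM in the other 5 clusters. In control it was at 13.5 CPM (6.73 to 24.1) in cluster 6 on 11 UMIs, and between 1.21 and 2.63 CPM in the others. So in each of the 6 clusters the B16-F10 level was the higher. Apobec3 was at 330 CPM in cluster 6 of the B16-F10 library and between 138 and 204 CPM in the other clusters, against 157 CPM in cluster 6 and 62.9 to 83.2 CPM elsewhere in control. Zbp1 in the B16-F10 library ranged from 9.76 CPM in cluster 5 to 31.5 CPM in cluster 6, and in control from 7.02 to 14.7 CPM in the same clusters. The Zbp1 intervals of the libraries overlapped in cluster 1 (9.15 CPM in control and 10.7 CPM in B16-F10) and in cluster 5. They were separate in the other clusters.

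**Figure D3:**
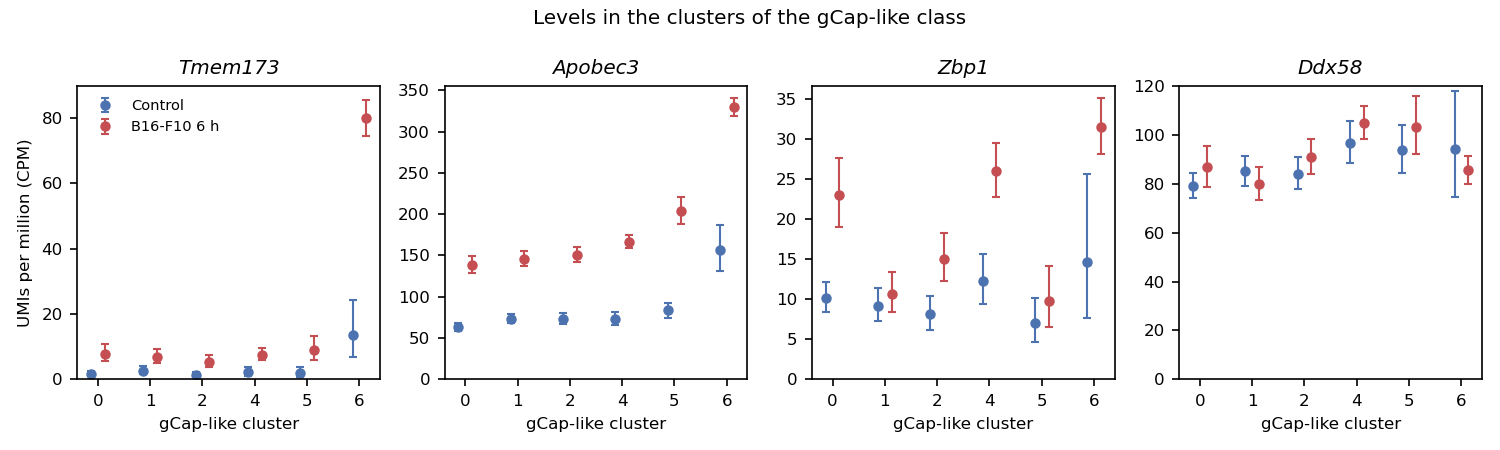
Level in CPM (vertical axis, from 0) of Tmem173, Apobec3, Zbp1 and Ddx58 in the 6 gCap-like clusters, with Control in blue and B16-F10 6 h in red; bars are exact 95% Poisson intervals. Cluster 6 of the B16-F10 library stood at 79.9 CPM for Tmem173, above the other clusters.

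Cells were next grouped by 2 scores, each the UMIs of a gene list in a cell reduced to 2000 UMIs. The first list held 43 genes that the study named as markers of reactive capillary cells (rCap). The second held 47 interferon response genes. The members were removed from both, and genes of the study's interferon list also from the first. The study's own lists had included Tmem173 and Apobec3 among the rCap genes and Irf7, Ddx58 and Ifih1 among the interferon genes, and it chose them partly on these libraries, so a shared course with that score is not independent evidence. Zbp1, Tbk1 and Irf3 were on neither list. Within each library cells were put at or below the median score (low), between (mid), or above the 90th percentile (high). The rCap limits were 21 and 31 UMIs in control and 37 and 70 UMIs in B16-F10, and 110 and 37 cells lay at the upper limit.

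Over the rCap score, Tmem173 in the B16-F10 library was at 4.97 CPM in low, 30.1 CPM in mid and 100.7 CPM in high cells. The 9.70% of cells in the high group held 40.2% of the Tmem173 UMIs, a log2 ratio of high over low of 4.34 (3.67 to 5.07). In control the counts were 9, 8 and 5 UMIs, and the ratio of high over low was 1.52 (-0.40 to 3.25). Apobec3 was at 131, 268 and 381 CPM in the B16-F10 groups, a ratio of 1.54 (1.35 to 1.74), and at 62.5, 77.9 and 98.4 CPM in the control groups. Ddx58 (92.3, 103 and 86.1 CPM) and Ifih1 (74.8, 78.3 and 64.9 CPM) did not follow the rCap score in the B16-F10 library, with ratios of -0.10 (-0.47 to 0.25) and -0.21 (-0.63 to 0.20). The ratio there was 1.13 (0.50 to 1.73) for Zbp1 and 1.04 (0.41 to 1.64) for Irf7. It was 0.51 (0.12 to 0.89) for Irf3 and 0.37 (0.08 to 0.65) for Tbk1. In control Zbp1 was at 1.92 (1.06 to 2.76) and Irf7 at 0.95 (0.22 to 1.63). Control Irf3 was at 0.29 (-0.15 to 0.72) and Tbk1 at -0.006 (-0.32 to 0.30).

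Over the interferon score the order of the members was another one. Irf7 was at 7.79 CPM in low and 98.0 CPM in high cells of the B16-F10 library, 12.6-fold, and at 5.95 and 73.3 CPM in control, 12.3-fold. Zbp1 was 6.46-fold higher in high than in low cells of the B16-F10 library and 10.0-fold in control. Ddx58 was 2.67-fold and 3.05-fold higher, and Ifih1 2.64-fold and 4.07-fold. Tmem173 was at 23.8, 21.9 and 36.04 CPM in the B16-F10 groups, a log2 ratio of high over low of 0.60 (-0.01 to 1.17). Apobec3 had a log2 ratio of high over low of 0.68 (0.47 to 0.88) in the B16-F10 library and 0.72 (0.39 to 1.03) in control. Tbk1 and Irf3 had log2 ratios of 0.24 (-0.03 to 0.51) and 0.24 (-0.20 to 0.65) in the B16-F10 library. In control these were 0.39 (0.10 to 0.67) for Tbk1 and -0.38 (-0.91 to 0.12) for Irf3.

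**Figure D4:**
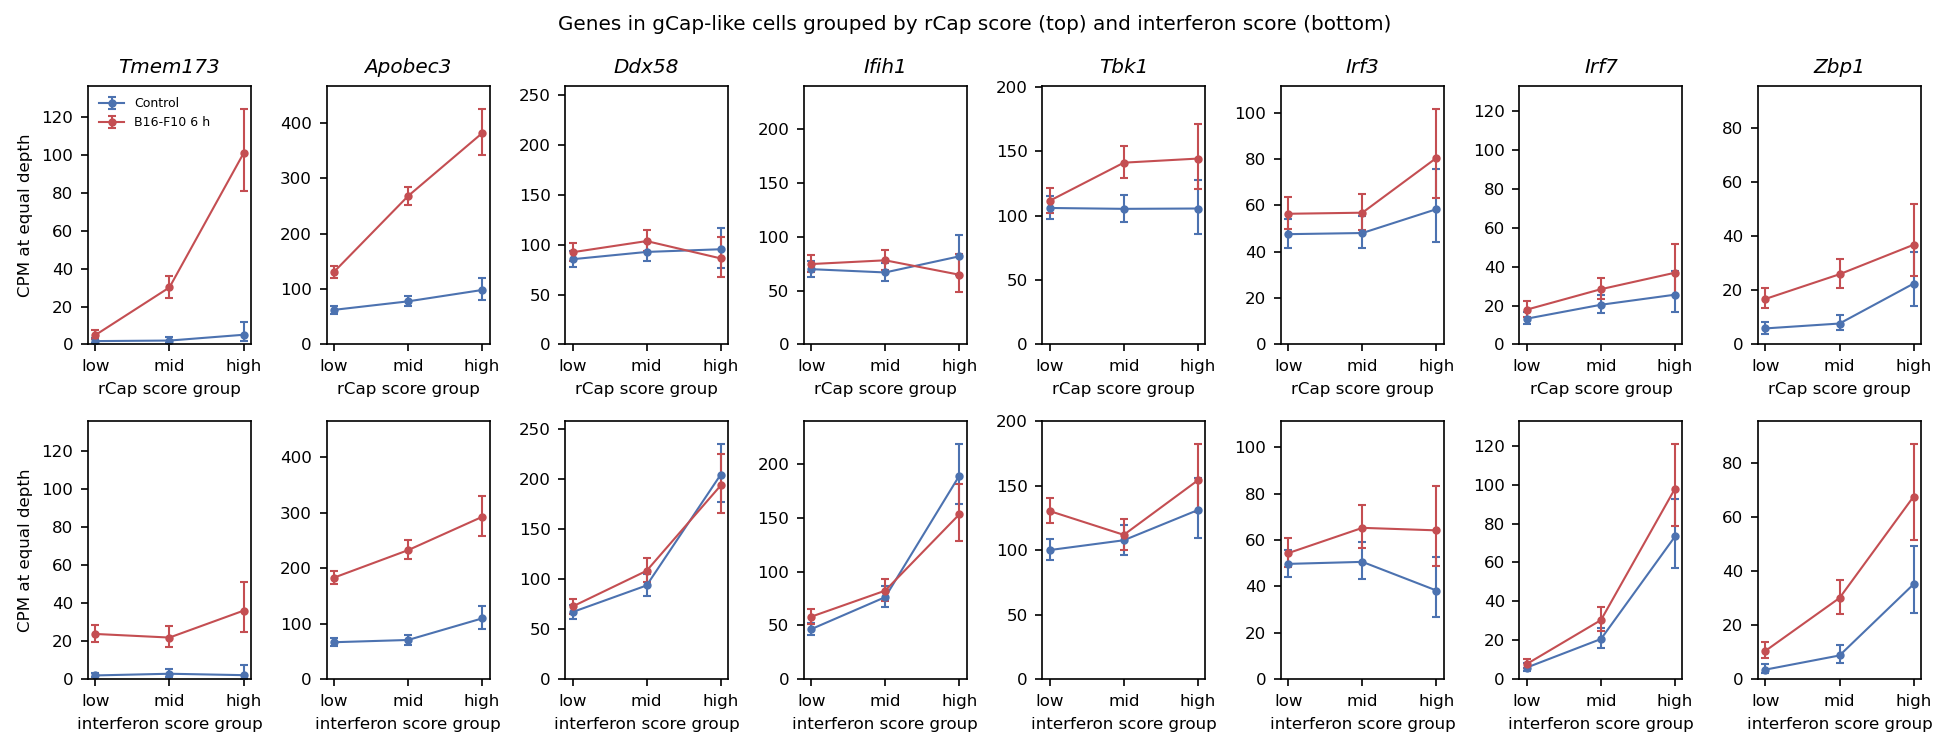
Level in CPM at 2000 UMIs per cell (vertical axis, from 0) in gCap-like cells of low, mid and high rCap score (top) and interferon score (bottom), with Control in blue and B16-F10 6 h in red; bars are exact 95% Poisson intervals. Tmem173 went from 4.97 to 100.7 CPM over the rCap score in the B16-F10 library, and Irf7 from 7.79 to 98.0 CPM over the interferon score.

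Cells with equal interferon scores were also compared between the libraries. In cells with 0 or 1, 2 to 4, 5 to 9, and 10 or more interferon UMIs, the log2 ratio of Tmem173 was 2.64 (0.37 to 5.89; 2 and 9 UMIs), 3.65 (2.45 to 5.15), 3.17 (2.17 to 4.35) and 3.78 (2.50 to 5.45). That of Apobec3 was 1.17, 1.504, 1.52 and 1.56. Zbp1 had 0 and 4 UMIs in the lowest range, and ratios of 1.12 (-0.03 to 2.34), 1.36 (0.58 to 2.19) and 1.22 (0.74 to 1.71) in the others. Ddx58 was at 0.06, 0.05, 0.16 and -0.06, with each interval spanning 0. Ifih1 was at 0.47 (-0.37 to 1.32), 0.43 (0.09 to 0.78), 0.09 and -0.24 (-0.47 to -0.01).

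Other genes of the pathway were read from a list of 73, of which 71 were in the matrices and 58 had at least 50 UMIs in gCap-like cells. 8 were at least 1.5-fold higher in the B16-F10 library and 0 lower, where 7.83% and 9.5% of all genes were. The interval lay above 0 for 30 (28.9% of all genes lay above), below 0 for 10 (34.7% of all genes lay below) and spanned 0 for 18, and the median log2 ratio was 0.16, against -0.04 over all genes. 7 genes of the list are also on the interferon list. By role, 1 of 15 measured genes of the DNA arm, 1 of 11 of the RNA arm, 2 of 4 endosomal receptors and their adaptors, 1 of 8 IRF and STAT factors, 1 of 6 genes of Z-nucleic acid and inflammasome signalling and 2 of 2 ligands were at least 1.5-fold higher, and 0 of 4 of the kinase complex and 0 of 8 effectors.

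Among the ligands, Cxcl10, a chemokine made in response to interferons, was at 2.07 CPM in control and 20.6 CPM in B16-F10 (78 and 839 UMIs), a log2 ratio of 3.31 (2.98 to 3.67). Cxcl9, a related chemokine, was at 1.30 and 4.36 CPM, a ratio of 1.75 (1.29 to 2.24). Ifnb1, which encodes interferon beta and was added after its value was seen, had 0 UMIs in both complete libraries, and so had the 14 interferon alpha genes of the matrices. The exact Poisson interval of a count of 0 in the gCap-like sums reaches 0.0977 CPM in control and 0.0904 CPM in B16-F10.

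Irf8, a transcription factor best known from myeloid cells, was at 1.19 and 8.13 CPM (45 and 332 UMIs), a log2 ratio of 2.77 (2.32 to 3.25). Myd88, the adaptor of most Toll-like receptors, was at 12.5 and 23.4 CPM, a ratio of 0.90 (0.74 to 1.06). Ripk3, the kinase that acts with ZBP1 in necroptosis, was at 5.59 and 9.51 CPM, a ratio of 0.77 (0.52 to 1.02). Dhx58, a regulator of the RNA receptors, was at 5.64 and 8.67 CPM, a ratio of 0.62 (0.37 to 0.87). The remaining 2 of the 8 were Ticam1 (0.74) and Dtx4 (0.61, -0.07 to 1.30), named after their values were seen.

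The partners of the members did not share one direction. Cgas, the DNA sensor upstream of STING, was at 10.9 and 12.4 CPM, a log2 ratio of 0.18 (-0.01 to 0.38). Mavs, the adaptor of the RNA arm, was at 14.2 and 11.8 CPM, a ratio of -0.27 (-0.45 to -0.09). Stat2 was at a ratio of 0.27 (0.20 to 0.33) and Irf9, its partner in type I interferon signalling, at 0.33 (0.25 to 0.40). Tlr3, the endosomal receptor of double-stranded RNA, was at -0.07 (-0.15 to 0.02). Ikbke, a kinase related to Tbk1, had 14 and 10 UMIs, and Trex1, a DNA exonuclease, had 0 in both gCap-like sums.

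**Figure D5:**
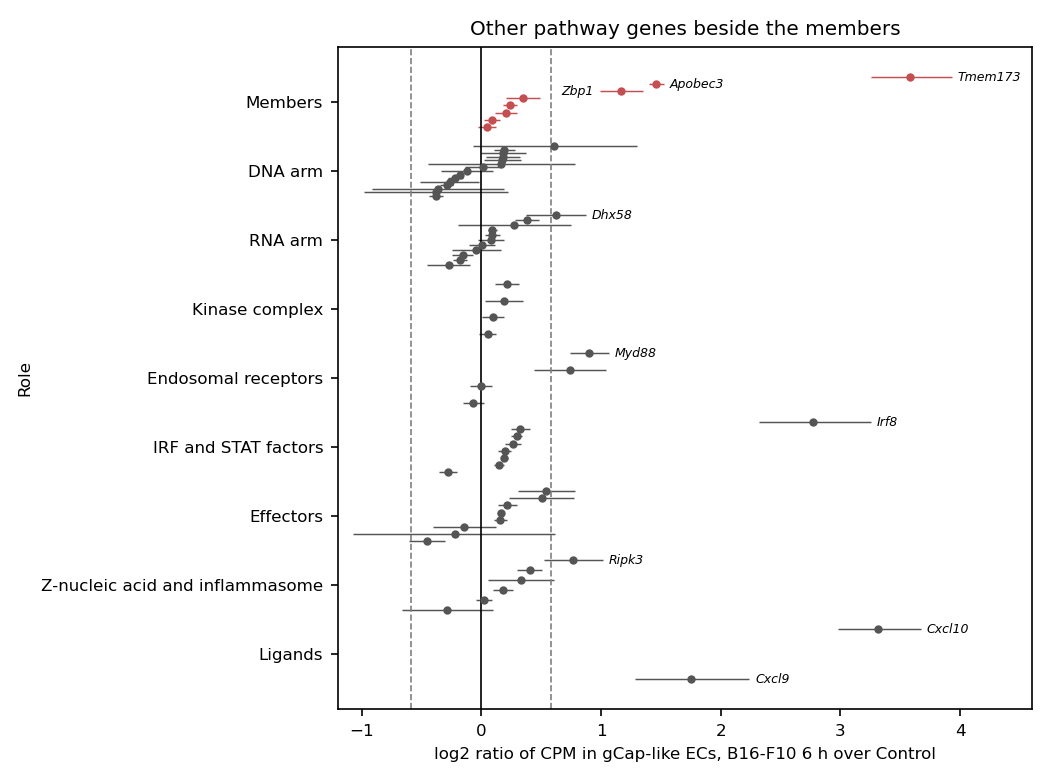
Log2 ratio of CPM in gCap-like cells, B16-F10 6 h over Control (horizontal axis), for the members (red) and for the 58 other pathway genes with at least 50 UMIs by role (grey); bars are exact 95% counting intervals and dashed lines mark 1.5-fold. Cxcl10 (3.31) and Irf8 (2.77) lay nearest to Tmem173 (3.58).

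Over the 10 sums of 5 classes in 2 libraries, the members were compared in pairs, without a test of grouping. Pearson correlations of log2(CPM + 1) ran from -0.57 (Tmem173 and Tbk1) to 0.95 (Ifih1 and Irf7). Tmem173 and Zbp1 were at 0.90, Ddx58 and Irf7 at 0.87, and Tmem173 and Ifih1 at -0.42. Apobec3 was highest with Tmem173, at 0.53, and was at 0.21 with Zbp1. Irf3 and Tmem173 were at -0.002. Among 10395 genes with at least 500 UMIs, those most like Tmem173 were Fosl2 (0.97), Ntpcr (0.95) and Dhx58 (0.95), and those most like Apobec3 were Myh9 (0.93), Uqcrq (0.91) and Hspa9 (0.91). Dlc1 (0.98), Tmem223 (0.98) and Lipe (0.97) were most like Ddx58, and Smad7 (0.98), Tcaim (0.98) and Acads (0.98) most like Ifih1. Micall1, Atp9a and Cenpb (each 0.96) were most like Zbp1, Rnaset2b, Amotl2 and Nudt3 (0.98, 0.97 and 0.97) most like Irf7, Cep41, 2810004N23Rik and Ppox (0.96, 0.93 and 0.93) most like Irf3, and F730043M19Rik, 8430426J06Rik and Adgrl1 (0.96, 0.96 and 0.95) most like Tbk1. The 10 points share libraries and depth, and the small classes weigh as much as the large ones. Each gene named as most like a member is among the highest of 10395 on these points, and its difference between the libraries could be another one. In gCap-like cells the log2 ratio was -0.63 for Smad7 and 0.62 for Acads, beside 0.05 for Ifih1.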

How the data were processed

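The authors deposited raw counts of UMIs per gene and barcode, for every barcode and without normalization, on the mm10 genome. The file headers and processing notes give Cell Ranger 7.2.0 and the study's methods an earlier version, and whether intronic reads were counted is not given in the sources used here. The study's limits of 1000 to 5000 genes per cell and less than 20% mitochondrial UMIs were applied. Scrublet scores in scanpy 1.11.5 marked doublets up to 0.8% per 1000 cells, which removed 564 control and 554 B16-F10 cells. Cells were clustered with leidenalg 0.10.2 (30 principal components, 20 neighbours, resolution 0.8) on 2942 variable genes without the members and response lists, and classes were named from markers. For CPM, the UMIs of a gene in a class of 1 library were divided by all UMIs of that class, without a pseudocount. Intervals are exact Poisson for CPM, exact binomial for shares and exact conditional binomial for ratios (scipy 1.17.1), and the ratio was tested on simulated data. With 1 library per group there is no p-value. Free RNA was estimated from barcodes with up to 100 UMIs.

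The members and lists were chosen with earlier results of these data known. Named genes were the 8 members, 9 partners whatever their values (1 is not reported here), up to 5 pathway genes per direction past 1.5-fold with at least 50 UMIs, and the 3 genes most like each member. Of 32285 gene IDs, 32158 were in GENCODE M21 (GRCm38, the build of mm10). Alternatives covered cell limits, doublets, clustering, scaling, depth, free RNA and cells with other markers. The last of these, a second thinning draw and the limit of 5500 UMIs for a cluster of low depth were chosen after the data were seen.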

Additional observations from a re-analysis of the deposited data

How the results depend on the processing

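Of 685 values recomputed under an alternative, 641 stayed within their counting interval or within 1.5 times their count, 40 moved beyond that, and 4 with an interval beyond 0 changed sign. Counting also the ratios and list medians whose main interval spans 0, the sign changed in 33. In gCap-like cells Tmem173 lay between 3.45 and 4.002 over 14 alternatives, and Zbp1 between 0.85 and 1.44. The log2 ratio of Tmem173 was 4.002 with cells thinned to 2000 UMIs, 3.45 in a second draw of the same thinning and 3.12 with all ECs summed. Apobec3 was 1.58 with doublets kept, 1.55 with the response lists kept in clustering, 1.54 in either thinning draw (1.541 and 1.544) and 1.23 with all ECs summed. The 4 came in cells without UMIs of other cell types' markers, chosen after seeing the data, where Ddx58 was -0.0076 in gCap-like and -0.56 in artery-like cells and Irf3 was -0.057 in aCap-like and -0.21 in artery-like cells. That setting kept few cells, and each of these intervals spans 0. There the vein-like ratio of Zbp1 was 0.07 (-1.86 to 1.80). In artery-like and in vein-like cells 1 member was counted as at least 1.5-fold higher, without the number measured or the share of all genes. A second, narrower marker list was added after these values were seen, and it changed no sign. Of the other 29 sign changes, 8 were in list medians. With free RNA subtracted 1 member was counted as at least 1.5-fold higher in aCap-like cells, without the number measured or the share of all genes. The aCap-like log2 ratio of Tmem173, on 4 and 49 UMIs in the main setting, lay between 3.77 and 4.90 over 10 alternatives. That of Apobec3 lay between 0.82 and 0.996 over 12. The causes of the changes were not tested. No paired analysis was possible because only 1 library stood on either side. Depth limits the LEC-like class most, where 2 of 8 members had at least 50 UMIs.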

Other observations

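Cxcl10 was also counted in the other vessel classes. In aCap-like cells 3 control UMIs stood against 992 B16-F10 UMIs (0.229 and 91.2 CPM), a log2 ratio of 8.64 (7.09 to 10.9), while in LEC-like cells it had 0 in both. Irf8 in LEC-like cells had 9 and 34 UMIs, a log2 ratio of 1.92 (0.83 to 3.16).

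An endothelial cluster led by Csf2, Sox9 and Prnd held 6 control and 306 B16-F10 cells and was given no vessel name. In its B16-F10 cells Tmem173 was at 21.3 CPM (16.4 to 27.2), Apobec3 at 133 CPM (121 to 147) and Irf7 at 8.65 CPM (5.65 to 12.7). A cluster with melanoma and macrophage markers held 114 B16-F10 cells, with Tmem173 at 39.0 CPM (29.3 to 50.9) and Apobec3 at 31.8 CPM (23.1 to 42.7). The 2 Lymphoid-like clusters, of 38 and 26 B16-F10 cells, when summed had Tmem173 at 63.1 CPM (42.9 to 89.5) and Apobec3 at 423 CPM (368 to 485).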
